A study of Homo sapiens with 12 samples.

Results

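The chaperonin TRiC, also called CCT, is built from the products of 8 genes, TCP1, CCT2, CCT3, CCT4, CCT5, CCT6A, CCT7 and CCT8, and these genes were chosen by exact symbol. All 8 were found among the 14866 genes of the tables, and all 8 were among the 13502 genes that reached a normalised count of 10 in at least 3 libraries and were tested. RNA-seq had been run on SHI-1, a human acute myeloid leukaemia cell line that carries the MLL-AF6 fusion. Cells were exposed for 16 h to DMSO, to 0.3 µM disulfiram with 1 µM copper (DSF), to 5 µM niclosamide (NSM), or to both (DSF+NSM), with 3 libraries per group from independent experiments. The labels name copper only together with disulfiram, so disulfiram and copper cannot be told apart, and all libraries come from 1 cell line. Of 10 myeloid marker genes, 10 were at or above a normalised count of 10 in every library, and of the 6 markers of other lineages that were measured, 3 (CD3E, PECAM1 and NCAM1) were, while MS4A1 was at 0 in all libraries.

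TRiC is a cytosolic chaperonin, a hollow particle of stacked rings in which newly made proteins fold in a closed chamber driven by ATP. Each ring holds every subunit at a fixed place, with CCT4, TCP1 and CCT3 as neighbours on one side and CCT2 and CCT5 next to each other. Its best known clients are actins and tubulins, and prefoldin and phosducin-like proteins hand over clients or regulate the folding cycle. HSPD1 and HSPE1 form the corresponding chaperonin and lid of mitochondria.

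In DMSO the subunit transcripts were present at similar levels per length, with the highest at 1.75 times the lowest. After DSF all 8 subunits were below their DMSO range, where 60.9% of all genes tested did not overlap with DMSO, and 5 of the 8 passed an adjusted p of 0.05 in limma. After NSM the log2 change was below 0 for 7 subunits and above 0 for CCT8, which was at -0.01 with equal library sums. Of the 8, 4 were called lower and 0 higher, where 23.7% of all genes tested were called lower and 25.4% higher. After DSF+NSM TCP1, CCT3 and CCT4 stood at 2.09, 2.24 and 1.98 times their DMSO means while CCT2 and CCT6A were below theirs. All 8 subunits were higher after DSF+NSM than the sum of the separate log2 changes after DSF and NSM. The DSF+NSM values are given on the authors' scale, on which these libraries summed to 22657898 to 25584448 normalised counts against 13963864 to 14379702 in DMSO. The sums were 14907290 to 15330685 after DSF and 16477426 to 17516910 after NSM. Bringing all libraries to equal sums moved the median log2 change of all genes to -0.75 for DSF+NSM against DMSO, and results that it turned are named with each comparison. In such bulk libraries, fewer cells of a kind and less RNA per cell cannot be told apart.

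The genes are spread over 7 chromosomes (GRCh38, GENCODE 44), so the subunits share no locus. TCP1 lies at chr6:159778498-159789703 on the minus strand, CCT2 at chr12:69585426-69601570 on the plus strand and CCT3 at chr1:156308968-156367873 on the minus strand. CCT4 lies at chr2:61868085-61888671 on the minus strand, and CCT7 lies on the same chromosome at chr2:73233420-73253021 on the plus strand. CCT5 is at chr5:10249929-10266389 and CCT6A at chr7:56051685-56063989, both on the plus strand, and CCT8 is at chr21:29055805-29073797 on the minus strand.

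RefSeq promoter windows (GRCh38.p14) matched 7 of the 8 genes. The bases upstream of the gene start are shown for TCP1, CCT4 and CCT8, which were higher than DMSO after DSF+NSM on the authors' scale (CCT8 lower with equal library sums), and for CCT2, which was lower on both. They are read 5′ to 3′ on the gene's strand from chr6:159789704-159789852 (TCP1, minus), chr2:61888672-61888921 (CCT4, minus), chr21:29073798-29073898 (CCT8, minus) and chr12:69585209-69585425 (CCT2, plus). Capitals mark a CCAAT box (CCAAT), a GC box (GGGCGG) or a heat shock element in head-to-head form (GAANNTTC), each on either strand.
TCP1: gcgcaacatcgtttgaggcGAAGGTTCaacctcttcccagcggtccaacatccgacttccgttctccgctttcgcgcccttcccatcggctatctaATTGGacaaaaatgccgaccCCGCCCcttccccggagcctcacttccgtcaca
CCT4: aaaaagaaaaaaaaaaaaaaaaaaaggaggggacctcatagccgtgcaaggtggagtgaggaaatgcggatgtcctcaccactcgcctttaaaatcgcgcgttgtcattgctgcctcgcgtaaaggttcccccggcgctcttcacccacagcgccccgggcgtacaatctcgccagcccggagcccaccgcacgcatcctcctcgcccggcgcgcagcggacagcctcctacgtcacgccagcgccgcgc
CCT8: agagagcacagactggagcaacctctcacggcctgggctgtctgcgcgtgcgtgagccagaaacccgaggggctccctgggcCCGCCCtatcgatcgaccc
CCT2: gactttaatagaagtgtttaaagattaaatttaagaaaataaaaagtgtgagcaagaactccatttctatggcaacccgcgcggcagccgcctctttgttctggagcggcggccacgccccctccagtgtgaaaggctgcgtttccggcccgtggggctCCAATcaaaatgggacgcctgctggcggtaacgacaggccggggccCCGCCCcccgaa

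TCP1 carried all 3 elements in this stretch, CCT2 a CCAAT box and a GC box, CCT8 a GC box, and CCT4 none of them. Over the 250 bases before each RefSeq start, CCAAT was found for TCP1, CCT2, CCT3 and CCT8, against 32.0% of 35116 promoter windows, and GGGCGG for the same 4 genes, against 42.6%. GAANNTTC was found for TCP1 and, before a second RefSeq start within the gene, for CCT2, against 5.78% of windows, and the tail-to-tail form TTCNNGAA for none, against 6.62%. The E-box CACGTG (6.34% of windows) and TGATGNAA, a core of the amino acid response element (3.14%), were found for none of the 7 genes. TGANNNNGC, the core of the antioxidant response element, was found for CCT4 and CCT8 (35.2% of windows), and the NRF1 element for CCT3 and CCT5 (5.07%). The windows of CCT3, CCT5 and CCT7 lay within the GENCODE bounds of these genes and not upstream of them. CCT2 and CCT4 had a second window each, while the percentages are per window. The CCAAT box and the GC box were thus found upstream of both TCP1 and CCT2, and whether any of these elements bears on the changes was not tested. Such a match describes letters in a window and is not evidence of binding.

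**Figure D1:**
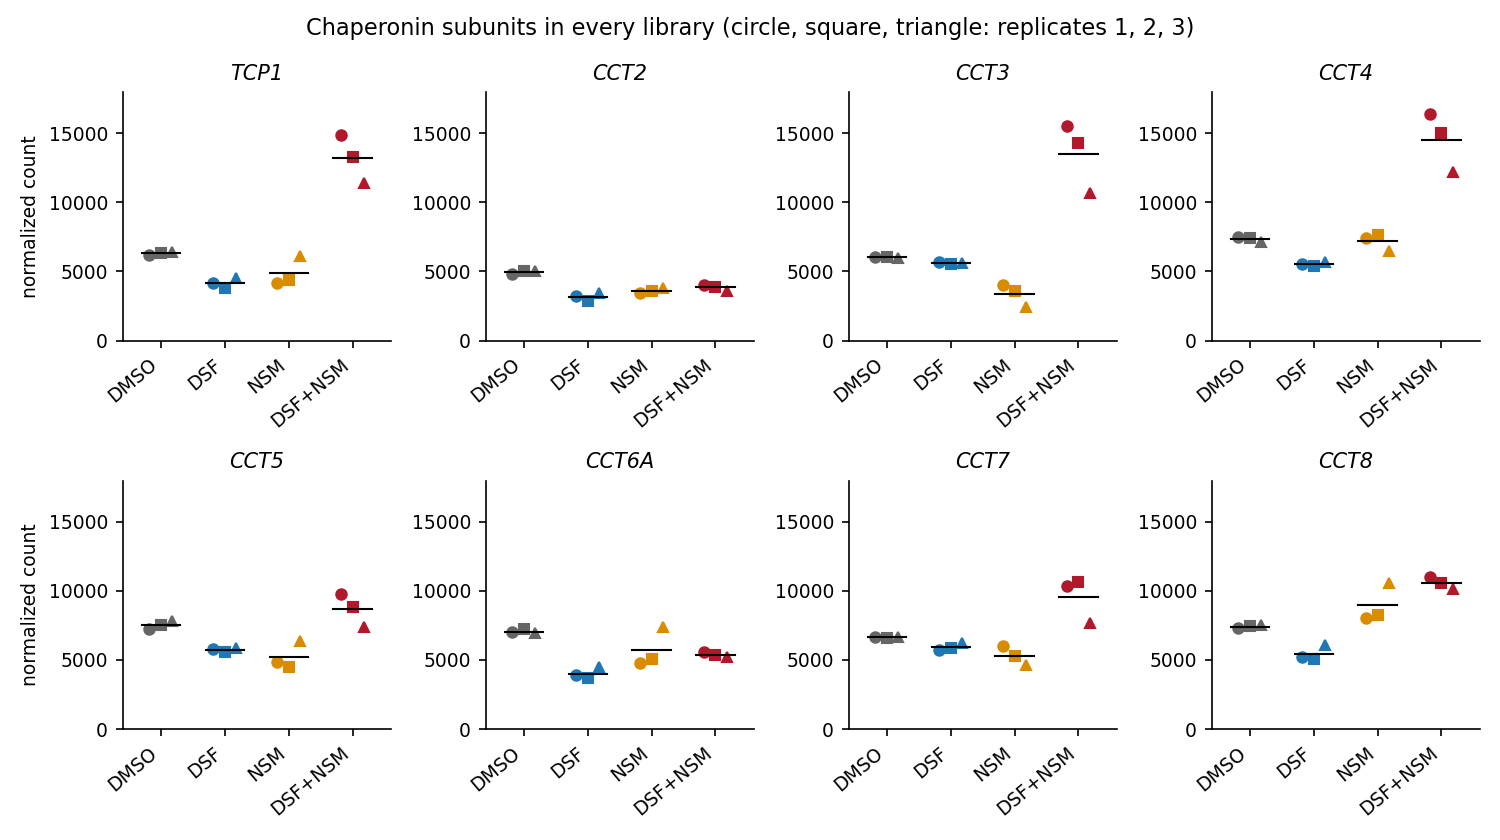
Normalised counts of the 8 TRiC subunits in the 12 libraries, by group, on axes from 0, with circles, squares and triangles for replicates 1, 2 and 3 and lines for the group means. TCP1, CCT3 and CCT4 after DSF+NSM lie between 10691 and 16406, above all other libraries of the same gene, while CCT2 lies lower after every treatment than in DMSO.

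DSF lowered the transcripts of 5 subunits. CCT6A, whose paralog CCT6B is enriched in testis, was at 7013, 7220 and 6941 normalised counts in DMSO and at 3900, 3662 and 4469 after DSF. The DSF libraries were all far below the DMSO libraries, and the log2 change was -0.82 (SE 0.15, adjusted p = 0.00357). CCT2 was at 4811, 5055 and 5046 in DMSO and 3212, 2840 and 3452 after DSF, a log2 change of -0.65 (adjusted p = 0.00159). TCP1, the subunit that gave the complex its name, was at 6181, 6347 and 6419 in DMSO and 4197, 3788 and 4510 after DSF, and its log2 change was -0.60 (adjusted p = 0.0173). For both genes the highest DSF library was below the lowest DMSO library. CCT8 (-0.45, adjusted p = 0.0247) and CCT4 (-0.41, adjusted p = 0.0358) also passed. CCT5 (-0.39, adjusted p = 0.0726), CCT7 (-0.16, adjusted p = 0.464) and CCT3 (-0.10, adjusted p = 0.738) did not, although their DSF libraries were also all below their DMSO libraries. CCT3 was the steadiest, at 5987 to 6053 in DMSO and 5571 to 5680 after DSF.

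All p-values are from limma over the 13502 genes with Benjamini-Hochberg adjustment, on log2(normalised count + 1), and a gene was called at an adjusted p under 0.05. Against DMSO, 5.95% of all genes tested were called lower after DSF and 17.8% were called in either direction, beside 5 of 8 subunits lower and 0 higher. Groups did not overlap for 60.9% of all genes tested, so the non-overlap of all 8 subunits is to be read beside that share. The median log2 change was -0.43 over the subunits and 0.05 over all genes. With libraries at equal sums every subunit was still below DMSO and CCT5 was called as well (adjusted p = 0.0184). With only DSF and DMSO fitted, 7 subunits were called lower, CCT5 (adjusted p = 4.82e-05) and CCT7 (adjusted p = 0.0403) among them. Library weights also gave 7 called lower. In these settings 7150 and 8171 genes were called in all, against 2405 in the main fit, whose estimate of spread all 4 groups share. The calls of TCP1, CCT8 and CCT4 were all lost on leaving out any DMSO library, the first DSF library or the second, with adjusted p up to 0.134, and CCT2 and CCT6A remained called on leaving out any library. CCT4 was lost also without DSF replicate 3 or DSF+NSM replicate 2, and CCT5 was called without NSM replicate 3 (adjusted p = 0.00385). DSF replicate 2 was below its group mean for all 8 subunits.

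**Figure D2:**
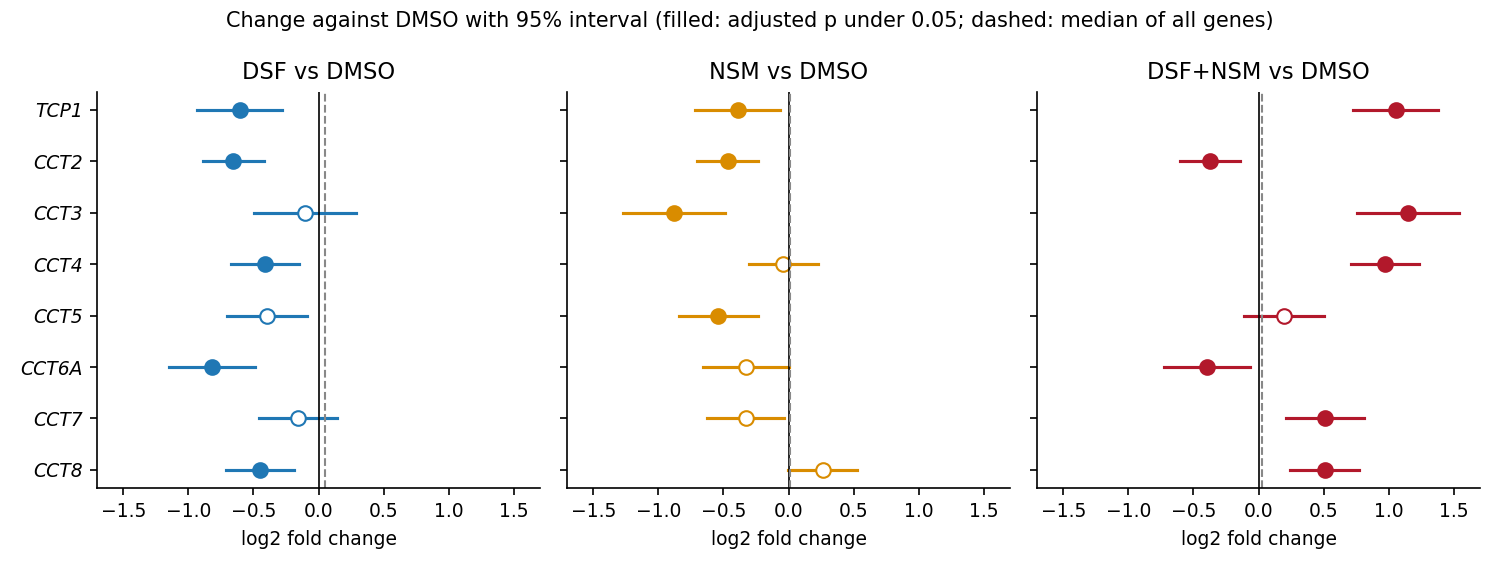
Log2 change of each subunit against DMSO after DSF, NSM and DSF+NSM, with 95% confidence intervals from limma on the authors' scale, filled points for adjusted p under 0.05, a solid line at 0 and a dashed line at the median of all genes. The DSF changes run from -0.82 to -0.10, the NSM changes from -0.88 to 0.26 and the DSF+NSM changes from -0.40 to 1.15, and with equal library sums CCT8 after NSM and CCT5, CCT7 and CCT8 after DSF+NSM lie below 0.

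After NSM 4 subunits were lower than in DMSO, and CCT3 was the furthest below. CCT3 was at 6046, 6053 and 5987 in DMSO and at 4037, 3603 and 2417 after NSM, the lowest CCT3 values of the 4 groups, and its log2 change was -0.88 (SE 0.18, adjusted p = 0.00156). CCT5 was at 7256, 7500 and 7850 in DMSO and 4849, 4502 and 6381 after NSM, a change of -0.54 (adjusted p = 0.00723). CCT2 was at 3408, 3572 and 3810 after NSM, a change of -0.47 (adjusted p = 0.00319). These 3 genes had every NSM library below every DMSO library. TCP1 was at 4184, 4385 and 6100 after NSM and was the weakest of the called genes (-0.39, adjusted p = 0.0478). CCT8 was at 7300, 7446 and 7525 in DMSO and at 8052, 8282 and 10599 after NSM, so that all NSM libraries were above DMSO, but its log2 change of 0.26 did not pass (adjusted p = 0.0914) and was -0.01 with equal sums. CCT4 was at 7121 to 7511 in DMSO and 6478 to 7614 after NSM, and the groups overlapped, with a change of -0.04 (95% confidence interval -0.30 to 0.22).

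Against DMSO, NSM lowered 4 of the 8 subunits and raised 0, where 23.7% of all genes tested were called lower, 25.4% higher and 49.1% were called in all. Groups did not overlap for 6 subunits, 5 lower and 1 higher, where 57.0% of all genes tested did not overlap. NSM replicate 3 stood apart from the other NSM libraries, with a Spearman correlation of 0.951 and 0.959 with them over all genes, where other pairs within groups were at 0.981 to 0.996. In that library CCT6A, TCP1, CCT5, CCT8 and CCT2 were the highest of the NSM group and CCT3, CCT4 and CCT7 the lowest. CCT6A was at 4750 and 5046 in the first and second NSM libraries and at 7413 in the third, and it was not called (-0.33, adjusted p = 0.0925), but without NSM replicate 3 its change was -0.53 (adjusted p = 0.00017). The change of CCT4 was 0.03 without that library. The call of TCP1 was lost when any 1 of 9 libraries was left out (all those of DMSO and DSF, NSM replicates 1 and 2 and DSF+NSM replicate 2), with adjusted p of 0.0584 to 0.154, and with median-of-ratios scaling, with no filter and with only NSM and DMSO fitted. CCT7 was called without NSM replicate 1 or DSF+NSM replicate 3. With equal sums 7 subunits were called lower, with the median of all genes then at -0.25, and with library weights 6 were called lower and 1 higher.

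After DSF+NSM the subunits moved in opposite directions. CCT3 was at 15569, 14321 and 10691 normalised counts, against 5987 to 6053 in DMSO, a log2 change of 1.15 (SE 0.18, adjusted p = 0.000192). TCP1 was at 14904, 13285 and 11406, against 6181 to 6419, a change of 1.05 (adjusted p = 9.25e-05). CCT4 was at 16406, 15035 and 12214, against 7121 to 7511, a change of 0.97 (adjusted p = 2.98e-05). For these 3 subunits the lowest DSF+NSM library was well above the highest DMSO library, and with equal sums they stayed above DMSO at 0.36, 0.27 and 0.19 but were not called (adjusted p of 0.0716, 0.0988 and 0.135). CCT7 was at 10369, 10618 and 7696, against 6560 to 6670, a change of 0.51 (adjusted p = 0.00743) that became -0.27 with equal sums. CCT8 was at 11008, 10556 and 10168, against 7300 to 7525, also a change of 0.51 (adjusted p = 0.00367), and -0.27 with equal sums.

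CCT2 and CCT6A were lower than in DMSO after DSF+NSM on both scales. CCT2 was at 4021, 3894 and 3606, against 4811 to 5055, a log2 change of -0.37 (adjusted p = 0.0108) that was -1.16 with equal sums. CCT6A was at 5569, 5325 and 5184, against 6941 to 7220, a change of -0.40 (adjusted p = 0.0436) that was -1.18 with equal sums. Its call on the authors' scale was lost on leaving out any DMSO or DSF+NSM library or DSF replicate 1 or 2 (adjusted p of 0.0543 to 0.11), while all DSF+NSM libraries were below all DMSO libraries. CCT5 was at 9784, 8833 and 7419, against 7256 to 7850, and the groups overlapped. Its change of 0.20 did not pass (adjusted p = 0.264) and was -0.59 with equal sums (adjusted p = 0.00107). In the DSF+NSM group replicate 1 was above the group mean, and replicate 3 below it, for all 8 subunits.

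Against DMSO, 5 subunits were thus called higher and 2 lower on the authors' scale, where 28.3% of all genes tested were called higher, 24.5% lower and 52.8% in all. With equal sums 0 were called higher and 3 lower, where 9141 genes were called in all. Groups did not overlap for 7 of 8 subunits, where 69.3% of all genes tested did not overlap. The distance between the highest and the lowest subunit change, which scaling leaves nearly in place, was 0.72 after DSF, 1.14 after NSM and 1.55 after DSF+NSM on the log2 scale. The SD of the changes rose in the same order over all genes tested (0.717, 1.06 and 1.34) and was smaller over the subunits (0.243, 0.339 and 0.609). The genes tested include genes near the filter of 10 normalised counts, while the subunits were at 2417 or more in every library. The SD of genes at like levels was not measured. The comparisons of DSF, NSM and DSF+NSM with DMSO share the same 3 DMSO libraries, so their values stand side by side and are not independent. The share of the normalised counts taken by ribosomal RNA genes was 2.05% ± 0.876 in DMSO, 4.23% after DSF, 2.38% after NSM and 7.29% after DSF+NSM, and its part in the library sums was not tested.

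Set against DSF alone, DSF+NSM was higher for most subunits on the authors' scale, while CCT2, CCT5, CCT6A and CCT7 were below DSF with equal sums. Against DSF, 7 of the 8 were called higher, where 21.7% of all genes tested were called higher, 21.4% lower and 43.1% in all, and the groups did not overlap for all 8, where 62.4% of all genes tested did not overlap. The largest of these changes were 1.66 for TCP1 (adjusted p = 6.17e-06), 1.38 for CCT4 (adjusted p = 4.64e-06) and 1.25 for CCT3 (adjusted p = 0.000169). CCT2, at 2840 to 3452 after DSF, had a change of 0.28 (adjusted p = 0.0502), which was called without DSF replicate 3, NSM replicate 1 or 3, or DSF+NSM replicate 3. CCT6A had a change of 0.42 (adjusted p = 0.0400), which was lost on leaving out any of 8 libraries, those of DMSO and DSF+NSM and DSF replicates 1 and 2. With equal sums only TCP1, CCT3 and CCT4 were called higher, at 0.97, 0.56 and 0.70, CCT2 was called lower at -0.41 (adjusted p = 0.00494), and CCT5, CCT6A and CCT7 were at -0.10, -0.26 and -0.01 and were not called.

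Against NSM, DSF+NSM was higher for 5 subunits, where 20.3% of all genes tested were called higher and 38.6% in all. CCT3 changed by 2.03 (adjusted p = 5.49e-06), from 2417 to 4037 after NSM to 10691 to 15569 after DSF+NSM, and TCP1 by 1.44, CCT4 by 1.01, CCT7 by 0.84 and CCT5 by 0.73. Groups did not overlap for these 5 subunits, where 41.5% of all genes tested did not overlap. CCT8 (0.25), CCT2 (0.09) and CCT6A (-0.07) were not called, and with equal sums the values of CCT8 and CCT2 were -0.27 and -0.42. Without NSM replicate 3 the change of CCT8 was 0.37 and was called (adjusted p = 0.00331), and that of CCT6A was 0.13. With equal sums TCP1, CCT3, CCT4 and CCT7 were still called higher, and CCT5 was not.

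The single drugs also differed from each other. CCT8 was higher after NSM (8052, 8282 and 10599) than after DSF (5228, 5078 and 6050), a log2 difference of 0.71 (adjusted p = 0.000684). CCT3 was lower after NSM (4037, 3603 and 2417) than after DSF (5680, 5571 and 5587), a difference of -0.78 (adjusted p = 0.00445). These differences kept their calls with equal sums. CCT6A (0.49, adjusted p = 0.0202) and CCT4 (0.37, adjusted p = 0.0258) were higher after NSM than after DSF but were not called with equal sums or without DSF replicate 1 or 2, and CCT4 was not called without DSF replicate 3 or NSM replicate 1 or 2 either. CCT5 was called lower without NSM replicate 3 (-0.29, adjusted p = 0.0288). In all 3 subunits were called higher and 1 lower, where 21.0% and 23.4% of all genes tested were and 44.4% were called in all. Groups did not overlap for the same 4 subunits, where 54.8% of all genes tested did not overlap.

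The interaction, the log2 change after DSF+NSM minus the sum of the changes after DSF and after NSM, was above 0 for all 8 subunits, and 8 were called, where 12.1% of all genes tested were called above 0, 14.0% below 0 and 26.1% in all. It was 2.13 for CCT3 (SE 0.25, adjusted p = 0.00016), 2.05 for TCP1 (adjusted p = 7.06e-05) and 1.42 for CCT4 (adjusted p = 0.000165). It was 1.13 for CCT5, 1.00 for CCT7, 0.75 for CCT2, 0.75 for CCT6A and 0.70 for CCT8. The sums of the single changes were all below 0, from -1.15 for CCT6A to -0.19 for CCT8, so that for CCT2 and CCT6A an interaction above 0 stands beside a level below DMSO. The median interaction was 1.06 over the subunits and 0.01 over all genes. With equal sums all 8 values stayed above 0 and 5 were called, while CCT2, CCT6A and CCT8 were not. In that setting 4774 genes were called in all, and the median of all genes moved to -0.40. CCT6A lost its call without DMSO replicate 2, DSF replicate 1 or 2, NSM replicate 2 or DSF+NSM replicate 1 (adjusted p of 0.0512 to 0.0632).

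**Figure D3:**
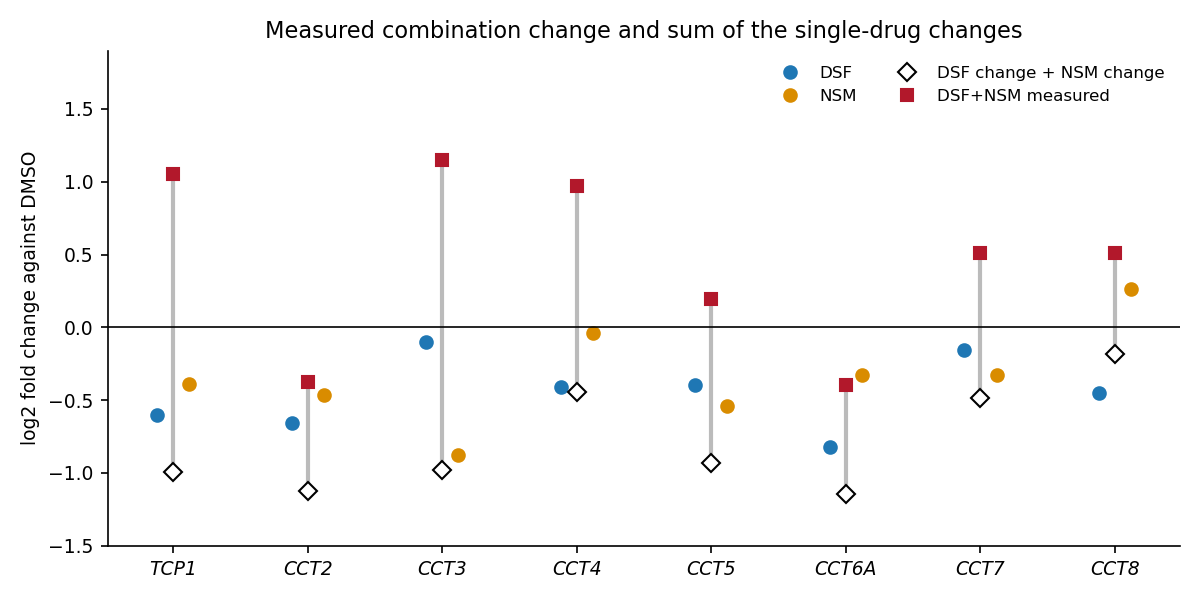
Log2 change of each subunit against DMSO on the authors' scale after DSF and NSM (circles), the sum of these changes (open diamonds) and the change measured after DSF+NSM (squares), with a grey line from the sum to the measured change. The square lies above the diamond for all 8 subunits, by 0.70 for CCT8 to 2.13 for CCT3, and with equal library sums the interaction was also above 0 for all 8.

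The order of the 4 groups by mean level differed among the subunits and is given first on the authors' scale. For TCP1 and CCT4 the order from the lowest was DSF, NSM, DMSO, DSF+NSM, and the neighbours that were not called different were DSF and NSM for TCP1 and NSM and DMSO for CCT4. For CCT3, CCT5 and CCT7 it was NSM, DSF, DMSO, DSF+NSM. In that order DSF and DMSO were not called different for any of the 3 genes, NSM and DSF were not for CCT5 and CCT7, and DMSO and DSF+NSM were not for CCT5. CCT8 ran from DSF over DMSO and NSM to DSF+NSM, and only the step from DSF to DMSO was called. CCT2 ran from DSF over NSM and DSF+NSM to DMSO, and only the step to DMSO was called. CCT6A ran from DSF over DSF+NSM and NSM to DMSO, where DSF and DSF+NSM were called different and the steps above were not. With equal sums TCP1, CCT3 and CCT4 kept their order, but for the other 5 subunits DSF+NSM was below DMSO and DMSO was the highest group. DSF+NSM was then the lowest group for CCT2 and CCT6A, lay between NSM and DSF for CCT5 and CCT7, and lay between DSF and NSM for CCT8.

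Because TRiC needs every subunit in each ring, the make-up of the subunit pool was described by the share of each subunit in the summed normalised counts of the 8 genes, a measure that no scaling of a library changes. The sum itself was 53321 ± 463 in DMSO (SD, n = 3), 39633 ± 2099 after DSF, 44280 ± 3083 after NSM and 79293 ± 9877 after DSF+NSM. As a share of all normalised counts it was 0.376% ± 0.003 in DMSO, 0.261% after DSF, 0.259% after NSM and 0.323% after DSF+NSM. In counts not divided by length, the highest subunit was 1.53 ± 0.04 times the lowest in DMSO, 1.89 ± 0.14 after DSF, 3.02 ± 1.18 after NSM and 3.78 ± 0.35 after DSF+NSM. The lowest count was that of CCT2 in 11 of the 12 libraries and that of CCT3 in NSM replicate 3.

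TCP1 made up 11.8% of the pool in DMSO, 10.5% after DSF, 11.0% after NSM and 16.6% after DSF+NSM. CCT3 made up 11.3% in DMSO, 14.2% after DSF, 7.67% after NSM and 17.0% after DSF+NSM, the widest range of group means among the 8. CCT2 made up 9.32%, 7.98%, 8.13% and 4.87% in the same order, the lowest share in each group but NSM. CCT6A made up 13.2%, 10.1%, 12.9% and 6.81%, so that CCT2 and CCT6A had their lowest shares after DSF+NSM. CCT8 made up 13.9% in DMSO and 20.2% after NSM, its highest share, and 13.7% and 13.4% after DSF and DSF+NSM. CCT4 made up 13.8% in DMSO and 18.3% after DSF+NSM. The ratio of CCT2 to TCP1 was 0.787 ± 0.009 in DMSO, 0.760 ± 0.009 after DSF, 0.751 ± 0.110 after NSM and 0.293 ± 0.023 after DSF+NSM.

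Of 24 shares in treated groups, 15 did not overlap with the DMSO share of the same subunit. After DSF the shares of TCP1, CCT2 and CCT6A were below DMSO and those of CCT3 and CCT7 above it, beside 70.8% of all genes tested whose ratio to the subunit sum did not overlap with DMSO. After NSM the shares of CCT2, CCT3 and CCT5 were below and that of CCT8 above, beside 58.0% of all genes. After DSF+NSM the shares of TCP1, CCT3 and CCT4 were above and those of CCT2, CCT5 and CCT6A below, beside 72.1% of all genes. The shares are a description and were not tested. The 15 were the same number after division by transcript length and were 15 to 18 with a single library left out.

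**Figure D4:**
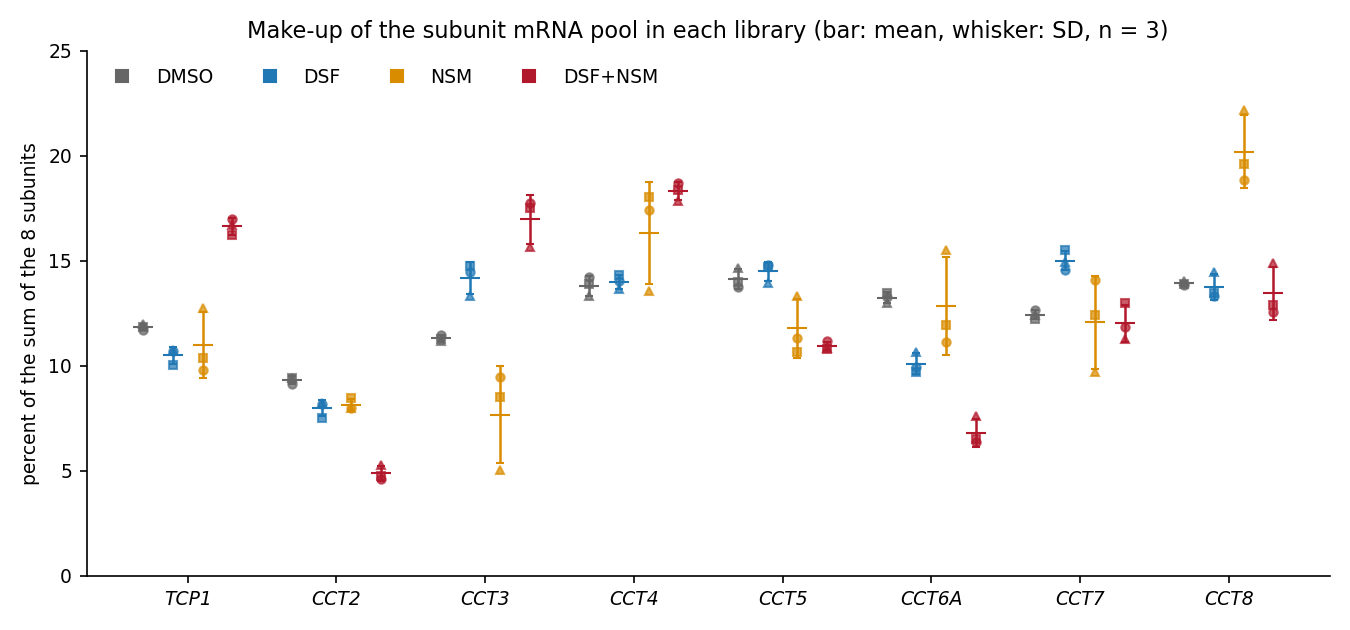
Share of each subunit in the summed normalised counts of the 8 TRiC genes, in percent, as points for the 12 libraries (circle, square and triangle for replicates 1, 2 and 3) with bars for the group means and whiskers for the SD. CCT2 and CCT6A fall to means of 4.87% and 6.81% after DSF+NSM while TCP1, CCT3 and CCT4 stand at 16.6% to 18.3%, and CCT8 reaches 20.2% after NSM.

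Divided by the length of the canonical transcript, the subunits can be set against each other. In DMSO the mean normalised count per kilobase ran from 2288 for CCT5 to 4004 for CCT8, a ratio of 1.75. After DSF it ran from 1552 for CCT6A to 3218 for CCT7, a ratio of 2.07, and after NSM from 1592 for CCT5 to 4842 for CCT8, a ratio of 3.04. After DSF+NSM it ran from 2004 for CCT2 to 6842 for CCT3, a ratio of 3.41. The spread between subunits per length was thus wider in each treated group than in DMSO, and it was not measured for other sets of genes.

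Across the 12 libraries, log2 levels of the subunits were positively correlated in 27 of 28 pairs, with a median Pearson r of 0.56 and a range from -0.10 for CCT3 with CCT6A to 0.96 for CCT3 with CCT7. TCP1 and CCT4 were at 0.94, and CCT2 and CCT6A at 0.89. The points fall into 4 groups and share library sums, so these values describe the group pattern and carry no test. Among 9779 genes compared with the mean log2 level of the 8 subunits over the 12 libraries, HSPD1 was the most like it, at r = 0.97, followed by LUC7L3, IQCB1, TTC1 and SRSF3 at 0.96 to 0.97. The genes most opposite to it were KLF13, TIMP2, PTPN9, STC2 and RIN3, at -0.97 to -0.96.

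HSPD1 and HSPE1, the mitochondrial chaperonin and its lid, stood in the order of TCP1 and of CCT3 over the groups. HSPD1 was at 16624 to 17355 in DMSO, 9399 to 10975 after DSF, 11230 to 17939 after NSM and 29217 to 39919 after DSF+NSM. Its log2 change was -0.74 after DSF (adjusted p = 0.0114), -0.34 after NSM (adjusted p = 0.115) and 1.02 after DSF+NSM (adjusted p = 0.000301), the last at 0.23 with equal sums and not called. HSPE1 was at 4584 to 5187 in DMSO, 2297 to 2652 after DSF, 771 to 1084 after NSM and 13293 to 22284 after DSF+NSM. It fell after DSF (-0.97) and NSM (-2.47) and rose after DSF+NSM (1.87, and 1.09 with equal sums), and its interaction was 5.31 (adjusted p = 3.98e-07).

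Prefoldin, which captures unfolded actin and tubulin and passes them to TRiC, had members that moved in both directions. Of its 6 subunits, 1 was lower after DSF (PFDN4, -1.67, a call lost in 4 of the 12 fits with a library left out), where VBP1 was at -0.81 and not called. After NSM 3 were higher, PFDN2 (1.19), PFDN5 (0.95) and PFDN1 (0.62, not called with equal sums or in 10 of the 12 fits with a library left out), and PFDN6 was lower (-1.05). After DSF+NSM PFDN5 (1.37) and PFDN2 (0.74, but -0.04 with equal sums) were higher and PFDN6 lower (-0.75). Of all genes tested, 17.8%, 49.1% and 52.8% were called after DSF, NSM and DSF+NSM. For the interaction 0 of the 6 prefoldin genes were called by limma, and 2 had an unadjusted p under 0.05. Beside them 26.1% of all genes tested and 8 of 8 TRiC subunits were called, and the difference between the lists was not tested. With equal sums 1 prefoldin gene was called below 0. Of the 3 phosducin-like cofactors tested, TXNDC9 was lower after DSF (-0.82) and PDCL3 higher after NSM (0.36, not called with equal sums), calls that were lost in 10 and 8 of the 12 fits with a library left out. PDCL was not called in any comparison with DMSO.

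Relatives of the subunits were measured as well. CCT6B, the testis-enriched paralog of CCT6A, was at 50.4 to 165 normalised counts over the 12 libraries and was not called against DMSO in any group. MKKS, a chaperonin-like protein that works with TRiC in assembling the BBSome of the cilium, was lower after DSF (-0.51) and DSF+NSM (-0.79), the first call being lost in 8 of the 12 fits with a library left out. BBS12 was higher after NSM (1.29) and DSF+NSM (1.33, not called with equal sums), from means of 31.2 in DMSO to 82.6 and 82.9. The pseudogenes CCT6P1 and CCT6P3, which resemble CCT6A, had means of 127 and 115 in DMSO and 382 and 369 after NSM, against group means of 4010 to 7058 for CCT6A. How reads that match both were counted was not settled, because the labels and the study's methods name different counting tools.

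Clients of TRiC moved in mixed directions. Of 13 actin and tubulin genes tested, 1 was higher and 1 lower after DSF, 0 higher and 9 lower after NSM, and 5 higher and 5 lower after DSF+NSM, beside the shares of all genes called given above (17.8%, 49.1% and 52.8%). With equal sums these counts were 1 higher and 4 lower, 0 and 11, and 3 and 9, where 2460, 6754 and 9141 genes were called in all. TUBB3, a beta tubulin typical of neurons, was at 111 to 118 in DMSO, 693 to 1478 after DSF, 41.3 to 109 after NSM and 17197 to 20265 after DSF+NSM, a log2 change of 7.36 in the last group and 6.58 with equal sums. TUBA1B, an alpha tubulin found in most cells, fell from 52615 to 56316 in DMSO to 23214 to 24559 after DSF+NSM (-1.17). TUBB6 fell after NSM (-2.35) and DSF+NSM (-1.82). TUBA1A was lower after DSF (-0.75) and higher after DSF+NSM (0.44, but -0.35 with equal sums). The interaction was called above 0 for 9 of the 13 genes and below 0 for 1, TUBA1B, where 12.1% and 14.0% of all genes tested were. With equal sums it was called above 0 for 6 and below 0 for 1, where 4774 genes were called in all.

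Of 10 other clients tested, 1 was higher and 0 lower after DSF, 2 and 2 after NSM, and 1 and 3 after DSF+NSM. Over all genes tested 17.8%, 49.1% and 52.8% were called. With equal sums the counts of these clients were 1 and 1, 0 and 4, and 0 and 8. In that setting 2460, 6754 and 9141 genes were called in all, and the median of all genes after DSF+NSM was -0.75. STAT3 was higher after DSF (0.58, a call lost in 4 of the 12 fits with a library left out), NSM (0.59, not called with equal sums) and DSF+NSM (0.70, but -0.08 with equal sums). CCNE1, which encodes cyclin E1, fell after NSM (-3.08) and DSF+NSM (-1.49), from 302 to 356 in DMSO to 24.8 to 54.2 and 90.6 to 136. Of the 6 tubulin folding cofactors, which act downstream of TRiC, 0 were called after DSF and 0 had an unadjusted p under 0.05. After NSM TBCE (0.59, not called with equal sums) was higher and TBCD (-1.44) lower. After DSF+NSM 2 were higher, TBCA (0.75) and TBCE (0.47), both below 0 with equal sums, and 3 lower, among them ARL2 (-0.76).

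**Figure D5:**
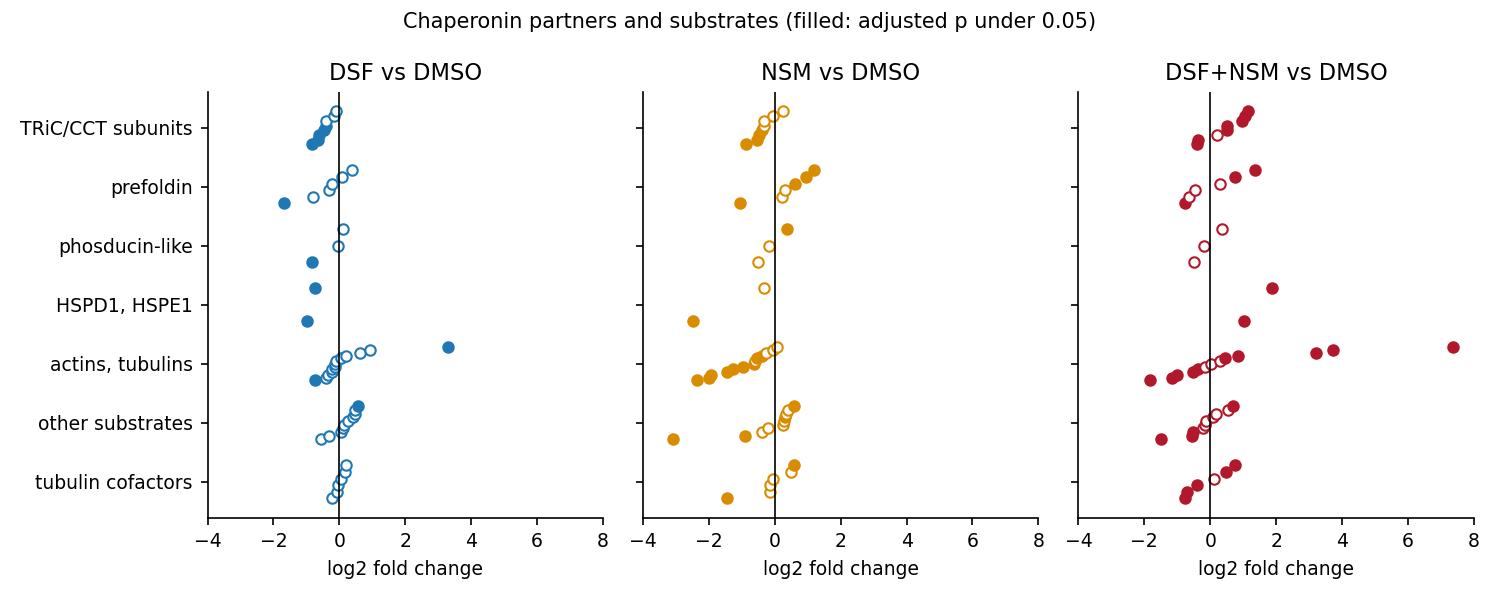
Log2 changes against DMSO after DSF, NSM and DSF+NSM for the TRiC subunits and the related gene lists, with 1 point per gene, filled where the adjusted p was under 0.05 and open otherwise, on the authors' scale. The subunits lie from -0.40 to 1.15 after DSF+NSM and from -0.82 to -0.10 after DSF, and TUBB3 stands out at 7.36, while for CCT5, CCT7, CCT8, PFDN2, TUBA1A, STAT3, TBCA and TBCE the DSF+NSM value is below 0 with equal library sums.

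The annotation limits the reading of some genes. TCP1 and ACAT2, on the opposite strand, share 454 exon bases, and ACAT2 had means of 1254, 690, 1672 and 2355 in DMSO, DSF, NSM and DSF+NSM, against 6315, 4165, 4890 and 13198 for TCP1. CCT5 overlaps an antisense RNA over 1734 exon bases, CCT4 overlaps antisense RNAs over 275 and 181, and CCT8 over 85. The TruSeq kit that the study's methods name does not mark strand, so reads of a gene and of its antisense partner cannot be told apart. The estimated reads behind a subunit were at least 1624 in each library.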

How the data were processed

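RNA-seq libraries of SHI-1 cells, 3 per group from independent experiments, were used as deposited. The values are a signal, counts per gene divided by library size factors (normalised counts, which the authors deposited). For mapping and counting, the labels name Bowtie2 and featureCounts on hg38, while the study's methods name STAR and Salmon, and which made the files was not settled. Of the 24 columns of libraries in the headers, 12 belong to the labelled samples, and the other columns were not used. Only 32.5% to 33.0% of the nonzero values per library were whole multiples of a step (tolerance 0.01), so whole reads were not recovered, no count model was fitted, and the estimated 10206614 to 19031007 reads per library are approximate. Sums of a library are therefore partly set by the size factors.

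Log2(normalised count + 1) was fitted for 13502 genes, those that reached 10 in 3 or more libraries, with 1 mean per group, in limma 3.58.1 (R 4.3.3) with trended, robust variance moderation. Contrasts were the 6 pairs of groups and the interaction, adjusted by Benjamini-Hochberg over all genes tested, and an adjusted p under 0.05 was called. The fit was tested on simulated data in which 200 genes per comparison with DMSO were changed by 1 on the log2 scale. It recovered 45.5% of them in the DSF comparison, 47.5% in that of NSM and 46% in that of DSF+NSM. False calls made up 5.21%, 4.04% and 7.07% of the calls, in the same order. A gene that was not called can therefore still have changed. In the data 2405 to 7125 genes were called in these comparisons, against 200 changed in the simulation, so these rates need not hold there. The subunits and the gene lists were chosen with earlier results of these data known. Named outside the subunits were all prefoldin, phosducin-like and mitochondrial chaperonin genes tested, the largest rise and fall among called members of the longer lists in each comparison with DMSO, and the 5 genes most and least like the mean of the subunits. TUBA1B, the subunits' relatives, the pseudogenes and ACAT2 were added after their values were seen. Replicate numbers were not used to pair the libraries. Of 18 correlations of deviations between same-numbered libraries, from -0.064 to 0.278 (NSM with DSF+NSM, replicate 3), 2 were over 0.1. A weak pairing by experiment is not excluded. Lengths came from GENCODE 44 canonical transcripts and motifs from RefSeq promoter windows. The p-values measure the spread between these 3 experiments in 1 cell line.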

Additional observations from a re-analysis of the deposited data

Results flagged for a closer look

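The effect of NSM in the presence of DSF differed from its effect without DSF for all 8 TRiC subunits, by the interaction tested in limma with Benjamini-Hochberg adjustment over all genes. The interaction was 2.13 for CCT3, 2.05 for TCP1, 1.42 for CCT4, 1.13 for CCT5 and 1.00 for CCT7 on the log2 scale, and these 5 were also called with equal library sums. It was 0.75 for CCT2, 0.75 for CCT6A and 0.70 for CCT8, and these were not called with equal sums, at adjusted p of 0.101, 0.245 and 0.213. With 3 libraries per group, no single subunit was tested for a library that stands apart from its own group.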

How the results depend on the processing

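With equal sums of normalised counts, the called subunits were 7 instead of 4 for NSM against DMSO, 3 instead of 7 for DSF+NSM against DMSO (0 higher, 3 lower), 4 instead of 7 against DSF, 3 instead of 4 for NSM against DSF (1 higher, 2 lower) and 5 instead of 8 for the interaction. Over all genes the calls in these comparisons then numbered 6754, 9141, 8258, 6021 and 4774. Signs turned for CCT8 in NSM against DMSO (-0.0063), for CCT5 (-0.59), CCT7 (-0.27) and CCT8 (-0.27) in DSF+NSM against DMSO, for CCT2 (-0.41), CCT5 (-0.10), CCT6A (-0.26) and CCT7 (-0.015) against DSF, and for CCT2 (-0.42) and CCT8 (-0.27) against NSM. With library weights 7 were called for NSM against DMSO and 7 for NSM against DSF, where 11107 and 10369 of the genes tested were called. CCT4 in NSM against DMSO (0.042) and CCT6A in DSF+NSM against NSM (0.11) then changed sign, as they did without NSM replicate 3. Over all libraries left out in turn, these values ran from -0.083 to 0.034 for CCT4 and from -0.19 to 0.13 for CCT6A. Fitting only the groups compared left 2 calls for NSM against DSF. For DSF against DMSO that setting and library weights each gave 7 called subunits instead of 5, where 7150 and 8171 genes were called in all. Leaving out 1 library at a time gave 2 to 6 called subunits for DSF against DMSO, 3 to 5 for NSM, 6 to 7 for DSF+NSM, 6 to 8 against DSF, 5 to 6 against NSM, 2 to 5 for NSM against DSF, 7 to 8 for the interaction, and 15 to 18 shares apart from DMSO. With a replicate block 3 subunits were called for NSM against DMSO, TCP1 being lost, and no other call changed. The numbers pair nothing in the labels beyond the number itself. Median-of-ratios scaling, both filters and both pseudocounts kept every count within 1.5 times its value, but TCP1 in NSM against DMSO was lost with median of ratios (adjusted p = 0.0534) and no filter (0.0517), as it was with only the groups compared (0.109), and it kept its call in 8 of 21 alternatives.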
